A study of Mus musculus with 18 samples.

Results

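The transcripts described here are those of 10 α- and β-tubulin genes, *Tuba1a*, *Tuba1b*, *Tuba1c*, *Tuba4a*, *Tubb2a*, *Tubb2b*, *Tubb3*, *Tubb4b*, *Tubb5* and *Tubb6*. They were chosen by gene symbol as 4 α- and 6 β-tubulins, with no measured value in the rule, although earlier results of these data were known when they were chosen. They are 10 of the 51912 genes counted, and all 10 were among the 24495 genes with enough reads to be tested. RNA was sequenced from primary astrocyte cultures of newborn mouse cortex in 2 fractions. The IP fraction came from translating RNA affinity purification (TRAP). The input fraction came from the lysate, sampled after a spin that removed debris and before the pull-down. The cultures came from mice on a B6;FVB background that carried the transgene Tg(Aldh1l1-EGFP/Rpl10a)JD130Htz/J, in which the *Aldh1l1* promoter drives RPL10A, a protein of the large ribosomal subunit, fused to EGFP, so that the IP holds RNA on the ribosomes of cells that use this promoter. All groups carried the transgene, held cortices of equal numbers of male and female pups, and were kept without serum for 24 h before treatment.

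The 4 groups were IP control (6 dishes, 0 mM ethanol), IP ethanol (6 dishes, 50 mM ethanol for 24 h), input control (3 dishes) and input ethanol (3 dishes). The input libraries came from the same dishes as IP replicates 4 to 6 of each treatment. Whether dishes were seeded from separate cultures is not given in the sources used here. The p-values of ethanol within a fraction therefore measure the spread between dishes. IP vs. input and the interaction of fraction and treatment were fitted to all 18 libraries as if independent. Their main p-values leave out that 12 of these libraries share dishes, and fits with the dish as a block are given beside them. Library depth ran from 74239854 to 132810705 read pairs assigned to genes, and no pair of libraries agreed within sampling noise. The astrocyte label was checked with 10 marker genes, of which 8 were higher and 1 was lower in IP vs. input. Over all genes tested 25.2% were higher and 25.8% lower in the IP. *Aldh1l1*, the gene whose promoter drives the tag, was higher by 1.05 ± 0.02 (log2 fold change ± SE) in the IP. Of 8 microglia markers, 7 were lower in the IP and none was higher, and 11 neuronal markers summed to 121 to 122 CPM in input control (CPM, read pairs of a gene per 1000000 of the TMM-scaled library total). Most of that sum was *Stmn2* (89.2 CPM) and *Gap43* (19.8 CPM), while *Snap25*, *Dcx* and *Rbfox3* had a mean of at most 0.336 CPM in every group.

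Microtubules are built from dimers of α- and β-tubulin, and astrocytes use them for transport, shape, division and the movement of organelles. Cells keep the pool of free dimers in check through the stability of tubulin mRNA. When free tubulin is in excess, the factor TTC5 recognises the first residues of a tubulin chain as it leaves the ribosome and, with SCAPER, brings the CCR4-NOT deadenylase to the mRNA, which is then degraded while it is being translated. New chains are folded by prefoldin and the chaperonin CCT and are joined into dimers by the tubulin cofactors. The element that TTC5 reads is encoded at the very start of the coding sequence, which is shown here for 9 of the genes because the members were grouped by this shared mode of control. The first 4 codons are in capitals in each 30-base stretch, read from the genome of build GRCm38 at the coding exons of GENCODE M21.
Tuba1a: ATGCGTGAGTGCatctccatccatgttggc
Tuba1b: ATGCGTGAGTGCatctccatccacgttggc
Tuba1c: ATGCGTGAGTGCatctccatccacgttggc
Tuba4a: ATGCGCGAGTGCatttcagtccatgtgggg
Tubb2a: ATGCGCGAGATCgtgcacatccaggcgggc
Tubb2b: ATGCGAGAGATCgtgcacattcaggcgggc
Tubb3: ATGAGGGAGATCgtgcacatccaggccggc
Tubb4b: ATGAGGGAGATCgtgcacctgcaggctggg
Tubb5: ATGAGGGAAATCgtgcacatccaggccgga

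The capital stretches took 2 forms among the 4 α genes and 5 forms among the 6 β genes, *Tubb6* included, whose sequence is not shown. These are forms of the codons. All α stretches encode Met-Arg-Glu-Cys, and all β stretches shown encode Met-Arg-Glu-Ile. In the 4 α genes the first coding exon held only 3 coding bases, the start codon, and the next exon carried the rest of the stretch. In the 6 β genes the first coding exon held 57 coding bases. *Tuba1a* (chr15:98949837-98953703, minus strand), *Tuba1b* (chr15:98931425-98934565, minus strand) and *Tuba1c* (chr15:99029891-99038110, plus strand) lie next to each other, and *Tuba4a* is at chr1:75214228-75219865 on the minus strand. *Tubb2a* (chr13:34074274-34078007) and *Tubb2b* (chr13:34126748-34130466) are also neighbours on the minus strand. *Tubb3* is at chr8:123411424-123422015 on the plus strand, *Tubb4b* at chr2:25222160-25224702 and *Tubb5* at chr17:35833921-35838306, both on the minus strand. All 10 genes have 4 exons in the transcript used.

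The coding sequences resembled each other closely within each family, which limits how many reads can be counted. Between 2 α genes the identity ran from 85.3% to 98.4% over 6 pairs, and between 2 β genes from 80.8% to 96.5% over 15 pairs. An α and a β gene shared 55.1% to 57.9%. The authors' counts leave out reads with more than 1 place of origin, so the share of each transcript's 100-base windows that occur nowhere else in the reference genome or in another counted gene was computed. It was 25.6% for *Tuba1b*, 46.6% for *Tuba1c*, 50.0% for *Tuba1a* and 53.3% for *Tuba4a*. Among the β genes it was 63.1% for *Tubb2a*, 68.6% for *Tubb4b*, 69.5% for *Tubb2b*, 99.3% for *Tubb3* and 100% for *Tubb5* and *Tubb6*. Levels of *Tuba1b* and of the other genes with few unique windows are therefore uncertain against other genes, while a comparison of the same gene between groups uses the same windows on each side. *Tuba4a* overlaps *Stk16* (1379 bases) and *Tubb4b* overlaps *Fam166a* (121 bases) on the opposite strand. Counts of the annotated strand alone were 107.3% and 108.1% of the counts used for these 2 genes. A window found in another counted gene on either strand was taken as not unique. The 53.3% of *Tuba4a* therefore reflects this overlap too, and is no measure of its likeness to other α genes alone.

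The tubulins were abundant transcripts of these cultures. Together the 10 genes took 2722 ± 19.3 CPM in input control (SD, n = 3) and 2929 ± 55.0 CPM in IP control (n = 6). Levels of different genes were compared per kb of exons, as a description. In input control *Tuba1a*, the main α-tubulin of developing brain, led with 446 ± 3.28 CPM per kb (SD, n = 3). *Tubb2a* at 187 ± 3.10 CPM per kb and *Tubb5* at 184 ± 0.547 CPM per kb followed, and their libraries overlapped. *Tubb2b* (145.5 ± 3.88 CPM per kb), *Tubb4b* (137 ± 3.22), *Tuba1b* (105 ± 1.45) and *Tubb6* (51.7 ± 0.491) came next in this order with no overlap between neighbours. *Tuba1c* at 14.3 ± 0.407, *Tubb3* at 7.72 ± 0.357 and *Tuba4a* at 4.63 ± 0.182 CPM per kb were the lowest.

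*Tuba1a* made up 78.3% ± 0.123 of the α-tubulin level per length in input control and *Tuba1b* 18.4% ± 0.0937. No single gene led the β-tubulins in the same way, since *Tubb2a* held 26.3% ± 0.259 of the β total, *Tubb5* 25.8% ± 0.283, *Tubb2b* 20.4% ± 0.400 and *Tubb4b* 19.2% ± 0.469. *Tubb3*, the β-tubulin used as a marker of neurons, made up 1.08% ± 0.0454. These shares rest on how length is taken. Divided by the number of unique windows in place of length, the share of *Tuba1b* was 32.0% and that of *Tuba1a* 64.7%, *Tuba1b* moved up to the second place of the 10 genes, and the ratio of α to β totals was 1.27 in place of 0.801. Unique windows are single 100-base stretches, while a read pair can cover several of them. How well they stand for the part of a transcript that can be counted was not tested. *Tuba1a* was highest and *Tubb6* and *Tuba1c* were seventh and eighth on each of the 4 scales tried.

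**Figure D1:**
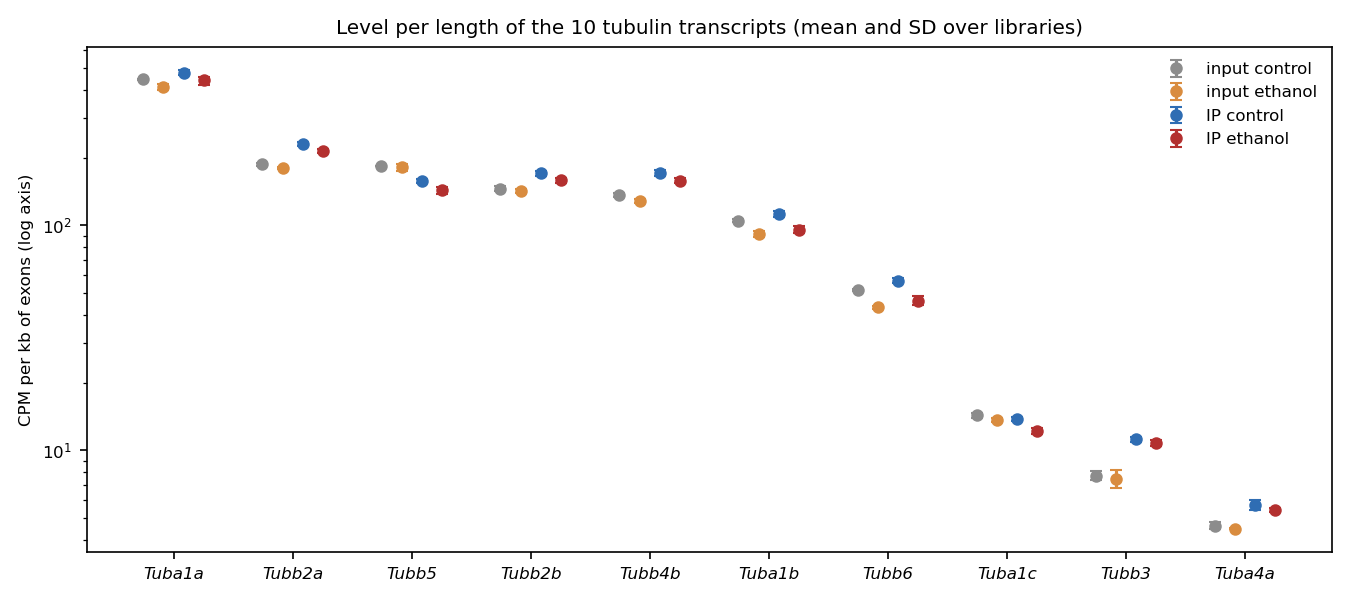
Level per length of the 10 tubulin transcripts in CPM per kb of exons on a log axis, with the mean (points) and SD (bars) over 3 input control, 3 input ethanol, 6 IP control and 6 IP ethanol libraries. *Tuba1a* stands highest at 446 CPM per kb in input control and *Tuba4a* lowest at 4.63, and only *Tubb5* and *Tuba1c* lie lower in the IP groups than in the input groups of the same treatment.

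IP vs. input compares the TMM-scaled level of each transcript between the 2 fractions. A gene higher in the IP is higher relative to the other transcripts there. The share of its RNA on ribosomes was not measured. All 10 tubulins passed the test over the 18 libraries, 8 higher and 2 lower in the IP. Of the 24495 genes tested 51% passed, 25.2% higher and 25.8% lower. The median log2 fold change of the 10 genes was 0.16, beside -0.03 over all genes tested. IP and input libraries did not overlap for 6 of the 10, *Tuba4a*, *Tubb2a*, *Tubb2b*, *Tubb3*, *Tubb4b* and *Tubb5*, against 25% of all genes. The ribosomal pull-down takes RNA from cells that carry the tag, so a difference between fractions can come from the cell types as well as from ribosome loading, and these cannot be told apart.

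*Tubb5*, the broadly expressed β-tubulin of dividing and progenitor cells, was the most clearly lower. Its input libraries held 609, 612 and 611 CPM in control and 624, 598 and 585 CPM in ethanol dishes. The 12 IP libraries ran from 456 to 541 CPM, all below the lowest input library. The log2 fold change was -0.28 ± 0.02 (SE, edgeR adjusted p = 5.02e-20), and IP was lower in all 6 dishes with both libraries, by -0.20 to -0.39 on the log2 scale. *Tuba1c*, a widely expressed α-tubulin, was lower by a smaller amount, -0.11 ± 0.03 (adjusted p = 6.24e-04), again in 6 of 6 dishes.

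*Tubb3* showed the largest excess in the IP. Its input libraries held 13.8, 14.3 and 15.1 CPM in control and 14.2, 15.2 and 12.6 CPM in ethanol dishes, while the IP libraries ran from 19.6 to 21.7 CPM. The log2 fold change was 0.53 ± 0.03 (adjusted p = 7.20e-23). The 11 neuronal markers were 4 higher, 3 lower and 4 not past the test in IP vs. input, with summed levels of 121 to 122 CPM in input control and 125 to 135 CPM in IP control, of which *Stmn2* alone made 89.2 and 108 CPM. Their part in the *Tubb3* difference was not tested. *Tubb3* also overlaps *Gm20388* on the same strand over its whole length, though 99.3% of its windows were unique.

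*Tubb4b*, a β-tubulin found in most tissues and in cilia, was higher in the IP by 0.32 ± 0.02 (adjusted p = 1.82e-24), with 277 to 290 CPM in input control and 341 to 372 CPM in IP control. *Tuba4a*, an α-tubulin of differentiated cells, was higher by 0.29 ± 0.03 (adjusted p = 1.23e-12). The brain β-tubulins *Tubb2a* and *Tubb2b* were higher by 0.27 ± 0.02 and 0.19 ± 0.02. These 4 genes were higher in each of the 6 dishes.

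Of the 8 genes higher in the IP, *Tubb6*, *Tuba1a* and *Tuba1b* differed least, by 0.12 ± 0.02, 0.10 ± 0.02 and 0.08 ± 0.02. Pooled over treatments their IP and input libraries overlapped, yet within a dish the IP was higher in 6 of 6 for each. These ratios rest on the TMM scale, and the lowest log2 ratio was 0.0368 for *Tuba1b* and 0.0431 for *Tuba1a*. Scaled by total counts, the log2 fold changes of *Tuba1a* and *Tubb6* were 0.05 and 0.07. The count of dishes was not repeated on that scale. The call for *Tuba1b* was lost when libraries were scaled by total counts (0.03, adjusted p = 0.198). With a block for the dish, over the 6 dishes with both libraries, the same 8 genes were higher and the same 2 lower. Against a fold change of 1.2, only *Tubb3* and *Tubb4b* passed.

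**Figure D2:**
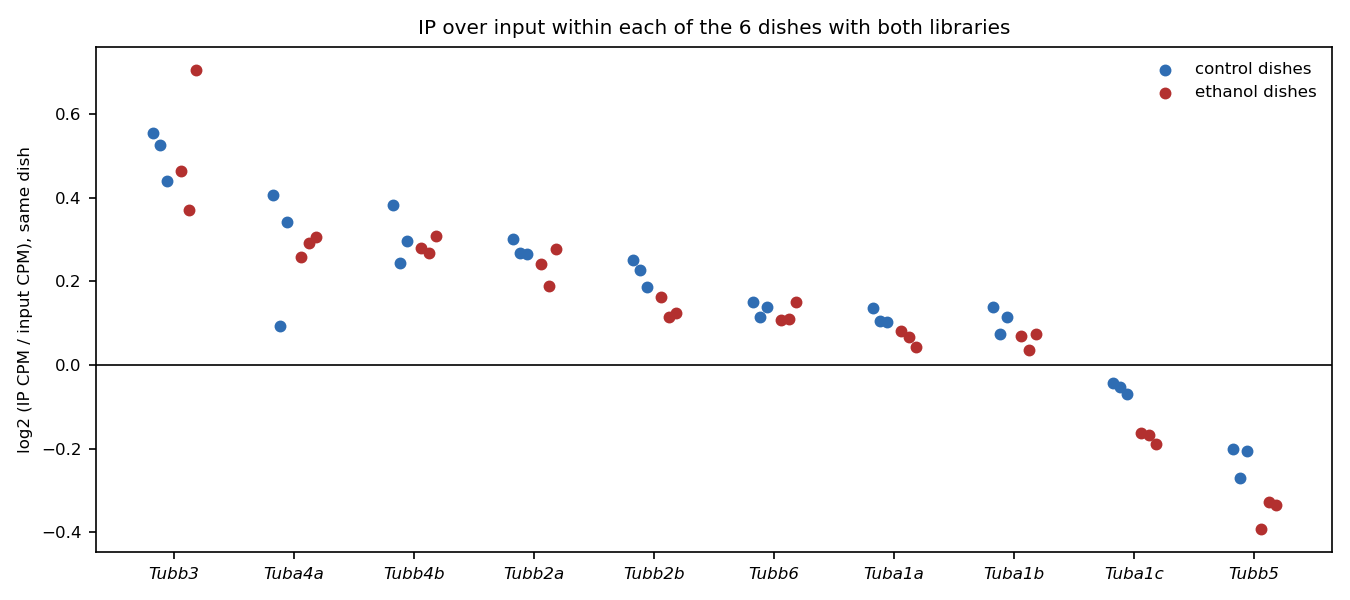
Log2 of the ratio of IP to input CPM for each tubulin gene within each of the 6 dishes sequenced in both fractions, 3 control (blue) and 3 ethanol (red), with 0 marking equal levels. The points of *Tuba1c* and *Tubb5* lie below 0 in all 6 dishes and those of the other 8 genes above 0, with *Tubb3* between 0.37 and 0.71.

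Tubulin transcripts were lower in the IP of ethanol dishes. Over the 12 IP libraries 8 of the 10 genes were downregulated by ethanol and 0 upregulated, while of all genes tested 21.4% were called, 9.48% lower and 11.9% higher. The median log2 fold change of the 10 genes was -0.11, beside 0.01 over all genes. Control and ethanol libraries did not overlap for 6 of them, *Tuba1b*, *Tuba1c*, *Tubb2a*, *Tubb2b*, *Tubb5* and *Tubb6*, against 9.96% of all genes. The changes were small, from -6.37% to -18.1% for the 8 genes called, and none of the 8 passed against a fold change of 1.2. In bulk samples fewer cells of a type and less RNA per cell cannot be told apart.

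*Tubb6*, a β-tubulin present at modest levels in many cell types, fell most. It ran from 134.5 to 142 CPM in IP control, with a median of 139 CPM, and from 103 to 116 CPM in IP ethanol, with a median of 115 CPM. In the input the control dishes held 127, 125 and 126 CPM and the ethanol dishes 106.5, 106 and 103 CPM. Every ethanol library lay below every control library of its fraction. The log2 fold change was -0.29 ± 0.03 in the IP (adjusted p = 2.23e-13) and -0.27 ± 0.03 in the input (adjusted p = 4.90e-23).

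*Tuba1b*, the ubiquitous α-tubulin, came second in both fractions. It ran from 201 to 218 CPM (median 212 CPM) in IP control and from 172 to 186 CPM (median 180 CPM) in IP ethanol. The input held 194, 197 and 199 CPM in control and 177, 173 and 166.7 CPM in ethanol dishes. The groups did not overlap in either fraction, with log2 fold changes of -0.22 ± 0.02 in the IP (adjusted p = 1.27e-10) and -0.19 ± 0.02 in the input (adjusted p = 1.68e-14).

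*Tuba1a*, the most abundant of the 10, fell by 7.21% in the IP (log2 fold change -0.11 ± 0.02, adjusted p = 4.40e-04). Its IP libraries ran from 827 to 889 CPM in control and from 751 to 840 CPM in ethanol, so that the groups overlapped. In the input they did not, with 799, 805 and 811 CPM in control and 767, 732 and 729 CPM in ethanol dishes (-0.12 ± 0.02, adjusted p = 1.77e-06). *Tubb4b* fell alike in both fractions, by -0.11 ± 0.02 in the IP and -0.10 ± 0.02 in the input (adjusted p = 2.87e-04 and 3.70e-04).

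*Tubb5* was called in the IP alone. It ran from 508 to 541 CPM (median 530 CPM) in IP control and from 456 to 500.1 CPM (median 476 CPM) in IP ethanol, with no overlap (-0.13 ± 0.02, adjusted p = 9.17e-06). In the input the ethanol dishes, at 624, 598 and 585 CPM, lay on each side of the control dishes, at 609, 612 and 611 CPM (-0.02 ± 0.02, adjusted p = 0.572). *Tuba1c* differed by -0.17 ± 0.03 in the IP (adjusted p = 7.28e-05) and by -0.07 ± 0.04 in the input (adjusted p = 0.236). *Tubb2a* and *Tubb2b* fell in the IP by -0.09 ± 0.02 and -0.10 ± 0.02, and their input values were -0.06 ± 0.02 (adjusted p = 0.0564) and -0.04 ± 0.02 (adjusted p = 0.292).

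*Tuba4a* and *Tubb3*, the 2 genes of lowest level, were not called in either fraction. *Tuba4a* differed by -0.06 ± 0.04 in the IP (adjusted p = 0.283) and the 95% interval of its difference ran from -8.88% to 0.870%. *Tubb3* differed by -0.05 ± 0.04 (adjusted p = 0.409), with an interval of -7.98% to 1.62%. Both intervals hold the estimate for *Tubb2a* (-6.37%), and neither reaches that for *Tuba1b* (-14.3%) or *Tubb6* (-18.1%). The difference between genes was not tested.

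**Figure D3:**
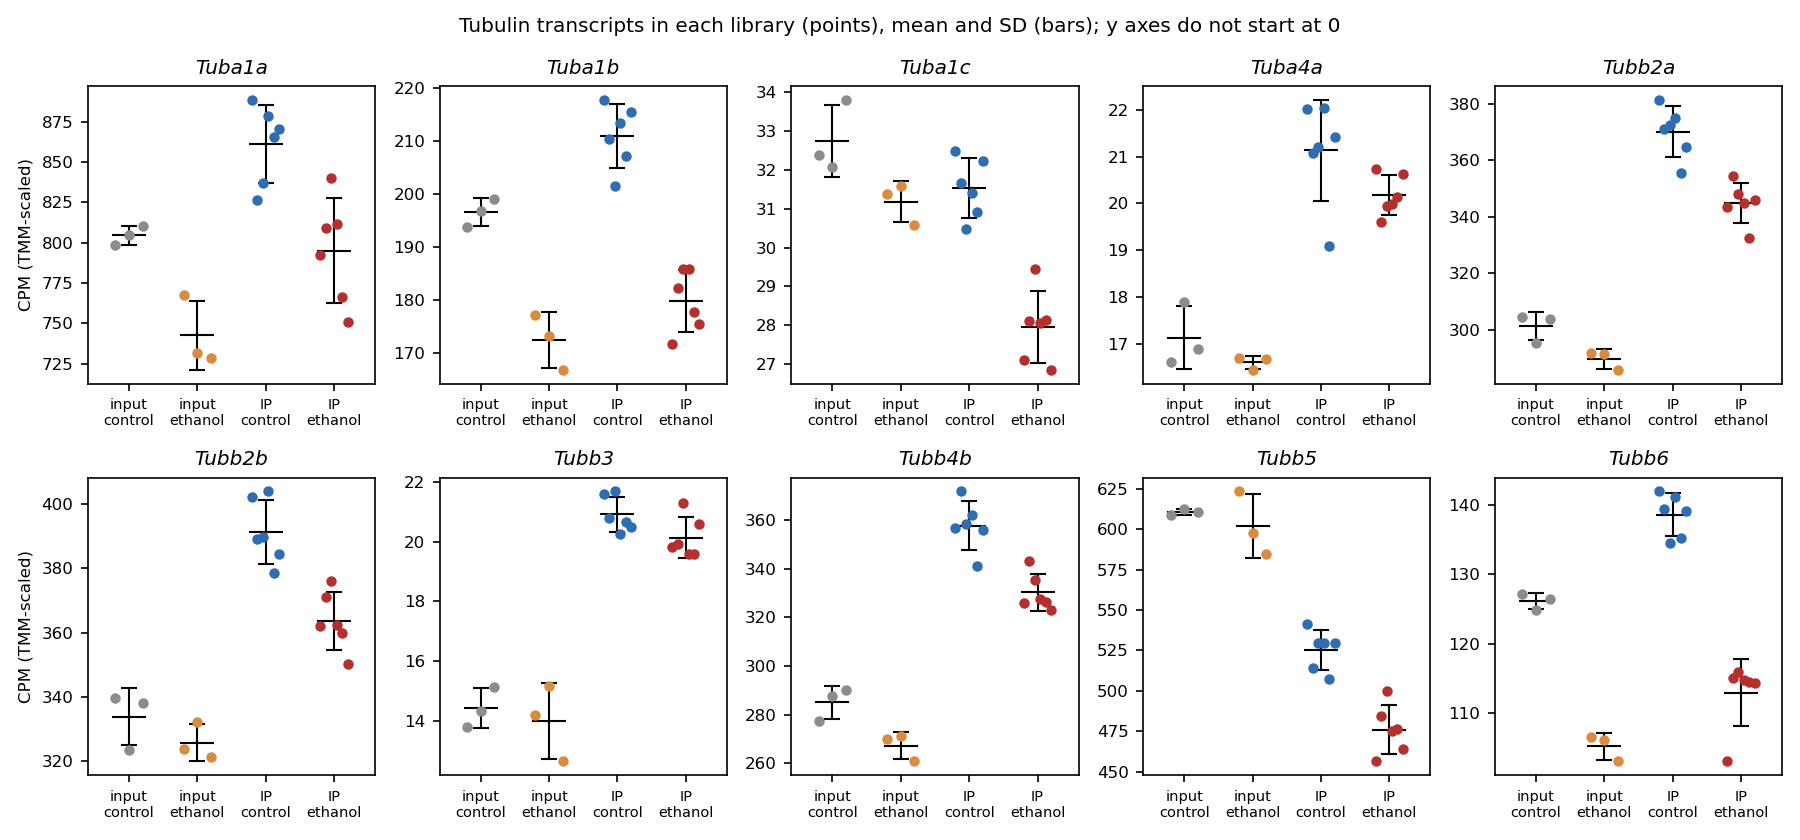
CPM of each tubulin gene in every library (points) by group, with the mean and SD (black), each panel on its own scale that does not start at 0. In *Tubb6* and *Tuba1b* all ethanol libraries lie below all control libraries of the same fraction, while the input libraries of *Tubb5* from ethanol dishes lie on each side of those from control dishes.

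In the input fraction 4 of the 10 genes, *Tubb6*, *Tuba1b*, *Tuba1a* and *Tubb4b*, were downregulated by ethanol and 0 were upregulated, with 15% of all genes called, 7.78% lower and 7.21% higher. The median of the 10 log2 fold changes was -0.07, beside 0.00 over all genes. Control and ethanol libraries did not overlap for 6 of the 10, against 27.1% of all genes. In the 6 IP libraries of the same dishes (limited IP), a comparison of the same size as the input, the 8 genes called over 12 libraries were called again, with 15.2% of all genes called, 7.72% lower and 7.45% higher. Libraries of the 2 groups did not overlap for 8 of the 10, against 27.1% of all genes. That comparison uses a subset of the same libraries and is no independent repeat. Without IP control replicate 4, *Tubb2a* (adjusted p = 0.133) and *Tubb2b* (adjusted p = 0.0511) were no longer called there, and without IP control replicate 6 *Tubb2a* was not (adjusted p = 0.0532). In the input, *Tubb2a* was called without input control replicate 5 (adjusted p = 0.0484).

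**Figure D4:**
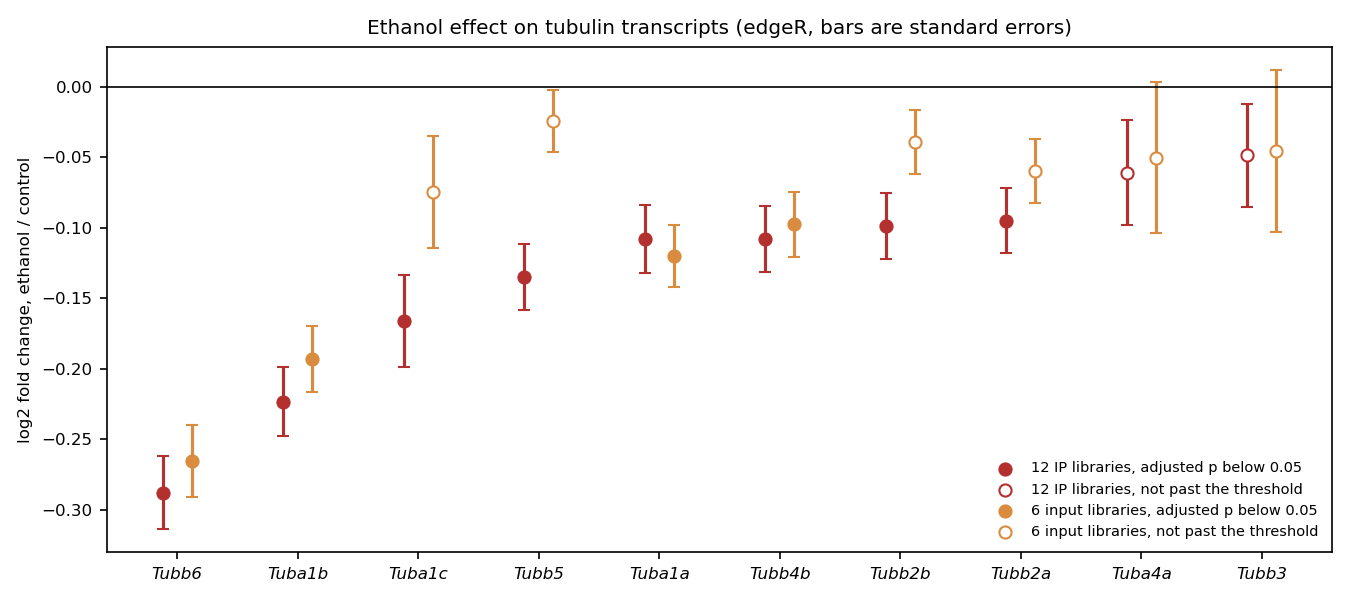
Log2 fold change of ethanol over control for the 10 tubulin genes with its standard error, from 12 IP libraries (red) and 6 input libraries (orange), filled where the adjusted p was below 0.05. All 20 values lie below 0, from -0.29 for *Tubb6* in the IP to -0.02 for *Tubb5* in the input.

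An interaction term of fraction and treatment in the fit of 18 libraries asks whether the ethanol effect differed between IP and input. It called 0 of the 10 tubulins and 0 of the 24495 genes by edgeR (0%), with 1459 genes at an unadjusted p below 0.05 and 4 genes called by DESeq2. In the 12 libraries of dishes with both fractions 102 genes were called with the dish as a block and 13 without it, and 0 of the 10 tubulins in either fit. *Tubb5* had the largest difference, -0.12 ± 0.04 (unadjusted p = 0.00179, adjusted p = 0.675), and with the dish as a block it was -0.11 ± 0.03 (adjusted p = 0.118). Within a dish the log2 ratio of IP to input for *Tubb5* was -0.20, -0.27 and -0.21 in control and -0.39, -0.33 and -0.33 in ethanol dishes. Ratios of control and ethanol dishes did not overlap for 5 of the 10 genes, *Tuba1a*, *Tuba1b*, *Tuba1c*, *Tubb2b* and *Tubb5*, and for 13.7% of the 18704 genes with reads in all 12 of these libraries. A larger fall in the IP than in the input is therefore not established for any of the 10.

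The sum of the 10 transcripts summarises the size of the change. It ran from 2861 to 3007 CPM in IP control and from 2592 to 2772 CPM in IP ethanol, a difference of -8.81% between the means. In the input it ran from 2710 to 2744 CPM in control and from 2510.5 to 2622 CPM in ethanol dishes, a difference of -5.72%. The α and β sums differed by -9.05% and -8.65% in the IP and by -8.41% and -4.03% in the input. Neither sum overlapped between control and ethanol in either fraction. The share of *Tubb6* among the β-tubulins per length was 7.13% ± 0.114 in IP control and 6.34% ± 0.234 in IP ethanol (SD, n = 6), and that of *Tuba1b* among the α-tubulins 18.5% ± 0.321 and 17.3% ± 0.404.

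The genes whose log2 CPM followed the log2 tubulin sum most closely over the 18 libraries, out of 11056 genes averaging 5 CPM or more, were *2310022B05Rik* (r = 0.967), *Tagln2* (r = 0.965), *Cnn2* (r = 0.961), *Myl12a* (r = 0.960) and *Pcp4l1* (r = 0.955). Over the 12 IP libraries they were *Fkbp1a* (r = 0.980), *Tgfb1i1* (r = 0.979), *Camk1* (r = 0.978), *Tagln2* and *Pcp4l1* (both r = 0.977). *Tagln2*, *Cnn2* and *Myl12a* encode proteins that act with actin. These correlations describe libraries that share treatment, fraction and culture, and they carry no test.

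The lists that follow are read against the shares of all genes called with ethanol, 11.9% higher and 9.48% lower in the IP and 7.21% higher and 7.78% lower in the input. Their counts between fractions are read against 25.2% of all genes higher and 25.8% lower in IP vs. input. Of 12 genes of the machinery that destroys tubulin mRNA (TTC5, SCAPER and subunits of CCR4-NOT), 2 were upregulated by ethanol in the IP, 0 were downregulated, and 0 were called in the input. The 2 were *Cnot6l*, a deadenylase (0.16 ± 0.04, adjusted p = 0.00424), and *Cnot1*, the scaffold of the complex (0.09 ± 0.03, adjusted p = 0.0134), and without IP control replicate 3 or 4 only 1 of the 12 was called. In the input 1 was called without input ethanol replicate 4 or 6. *Ttc5* differed by -0.01 ± 0.03 in the IP (39.7 ± 1.45 CPM in control and 39.2 ± 0.872 in ethanol, SD, n = 6, adjusted p = 0.871). *Scaper* differed by 0.08 ± 0.03 (adjusted p = 0.0808) and *Cnot11*, the CCR4-NOT subunit that meets SCAPER, by -0.02 ± 0.03 (adjusted p = 0.662). Between fractions 5 of the 12 were higher in the IP and 5 lower, with *Scaper* higher by 0.17 ± 0.03 and *Cnot7* lower by -0.40 ± 0.03.

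Of 14 genes for CCT and prefoldin subunits, which fold tubulin, 9 fell with ethanol in the IP, 0 rose and 5 did not pass, with a median of -0.09, beside 9.48% of all genes lower. In the input 6 fell, 1 rose and 7 did not pass, with a median of -0.05, beside 7.78% lower. *Cct3*, a CCT subunit, fell by -0.23 ± 0.02 in the IP and -0.20 ± 0.02 in the input, and *Pfdn1*, a prefoldin subunit, by -0.18 ± 0.03 and -0.13 ± 0.03. The call of the gene that rose in the input was lost without any of 5 of the 6 libraries. Of 7 tubulin cofactors and their partners, 3 fell in the IP, *Arl2* (-0.20 ± 0.03), *Tbce* (-0.17 ± 0.04) and *Tbcb* (-0.14 ± 0.03), and *Arl2*, a small GTPase of dimer assembly, fell in the input (-0.20 ± 0.03). Between fractions the 14 genes were 5 higher and 7 lower, led by *Pfdn5* (-0.60 ± 0.02) and *Cct3* (0.33 ± 0.02), and the 7 were 4 higher and 1 lower, *Tbca* (-0.51 ± 0.02).

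Tubulins outside the 10 were not called with ethanol. Of 10 further tubulin genes 9 could be tested, and 0 were called with ethanol in either fraction by edgeR, with a median of 0.13 in the IP and 0.02 in the input. *Tubg1*, the γ-tubulin of the nucleating complex, held 41.7 CPM in IP control and 41.4 CPM in IP ethanol (0.00 ± 0.03), and *Tubb4a*, a β-tubulin of myelinating cells and neurons, 13.8 CPM in each (0.01 ± 0.05). *Tuba8* and *Tubg2* were at 2.23 to 5.16 CPM in every group, and *Tuba3a*, *Tubal3* and *Tubb1* at or below 0.5245 CPM. Without IP control replicate 6 or IP ethanol replicate 6, 1 of the 9 rose. In IP vs. input 1 of the 9 was higher, *Tuba8* (0.33 ± 0.07), and 3 lower, among them *Tubb4a* (-0.11 ± 0.04), and 2 were higher without input control replicate 5, IP control replicate 1 or IP ethanol replicate 6. Of 9 genes of the γ-tubulin ring complex 4 rose in the IP, led by *Mzt2* (0.17 ± 0.04) and *Tubgcp5* (0.16 ± 0.04), and 0 fell, while without IP control replicate 2 or 3 only 2 rose. In the input 1 rose, *Mzt1* (0.09 ± 0.03), a call lost without any of 4 of the 6 libraries. Of these 9, 3 were higher and 4 lower in IP vs. input, beside 25.2% and 25.8% of all genes.

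Of 33 genes that bind microtubules 10 rose and 3 fell with ethanol in the IP, with a median of 0.04, beside 11.9% of all genes higher and 9.48% lower. In the input 6 rose and 7 fell, with a median of 0.00, beside 7.21% higher and 7.78% lower. *Mapre1*, which tracks growing plus ends, fell by -0.19 ± 0.02 in the IP and -0.16 ± 0.02 in the input, and the spindle protein *Tacc3* by -0.18 ± 0.04 and -0.25 ± 0.06. *Tacc2* rose by 0.16 ± 0.02 in the IP, and the severing enzyme *Spast* by 0.15 ± 0.03 in the IP and 0.14 ± 0.04 in the input. Only 3 rose in the input without input control replicate 4 or 5 or input ethanol replicate 6. As for fractions, 23 of the 33 were higher in the IP and 4 lower, beside 25.2% and 25.8% of all genes. *Mapt*, the gene of tau, was higher by 0.69 ± 0.04 and *Dclk1* by 0.53 ± 0.02.

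Stathmins bind free tubulin dimers. *Stmn1* and *Stmn2*, 2 of the 4, fell in both fractions, *Stmn1* by -0.13 ± 0.03 in the IP and -0.26 ± 0.04 in the input and *Stmn2* by -0.18 ± 0.03 and -0.13 ± 0.03, and in IP vs. input 2 were higher and 1 lower. Of 25 genes that modify tubulin after translation 24 were tested, 2 rose and 1 fell with ethanol in the IP, and 2 rose and 2 fell in the input. Over all genes 21.4% were called in the IP and 15% in the input, so these counts do not stand out. *Agtpbp1*, which trims glutamate side chains, fell by -0.15 ± 0.03 in the IP and -0.15 ± 0.04 in the input, and *Ttll1*, a glutamylase, rose by 0.09 ± 0.03 and 0.14 ± 0.04. The count that rose in the IP was 1 or 0 without any of 9 of the 12 IP libraries, and without input control replicate 4 or 5 or input ethanol replicate 4 or 6 a count of 2 in the input was 1 or 0. Between fractions 10 of the 24 were higher in the IP and 8 lower, beside 25.2% and 25.8% of all genes.

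Of 7 genes for actin, intermediate filaments and lamins, 5 fell with ethanol in the IP and 6 in the input, beside 9.48% and 7.78% of all genes. *Actb* fell by -0.23 ± 0.04 and -0.28 ± 0.02, *Actg1* by -0.19 ± 0.02 and -0.17 ± 0.02, *Nes*, an intermediate filament of progenitors, by -0.15 ± 0.02 and -0.23 ± 0.02, and *Lmnb1*, a nuclear lamin, by -0.28 ± 0.05 and -0.40 ± 0.06. Of the 7, 6 were higher in IP vs. input, beside 25.2% of all genes. Of 20 genes of cycling cells 20 fell in the IP, with a median of -0.31, and 19 in the input, with a median of -0.47, against the same shares of all genes. Their summed level ran from 173 to 189 CPM in IP control and from 140 to 151.3 CPM in IP ethanol, and from 176 to 181 CPM in input control and 128 to 139 CPM in input ethanol. The part of cycling cells in the fall of the tubulins was not tested. Of the 20, 5 were higher and 4 lower in IP vs. input, and 3 were higher without input ethanol replicate 6.

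**Figure D5:**
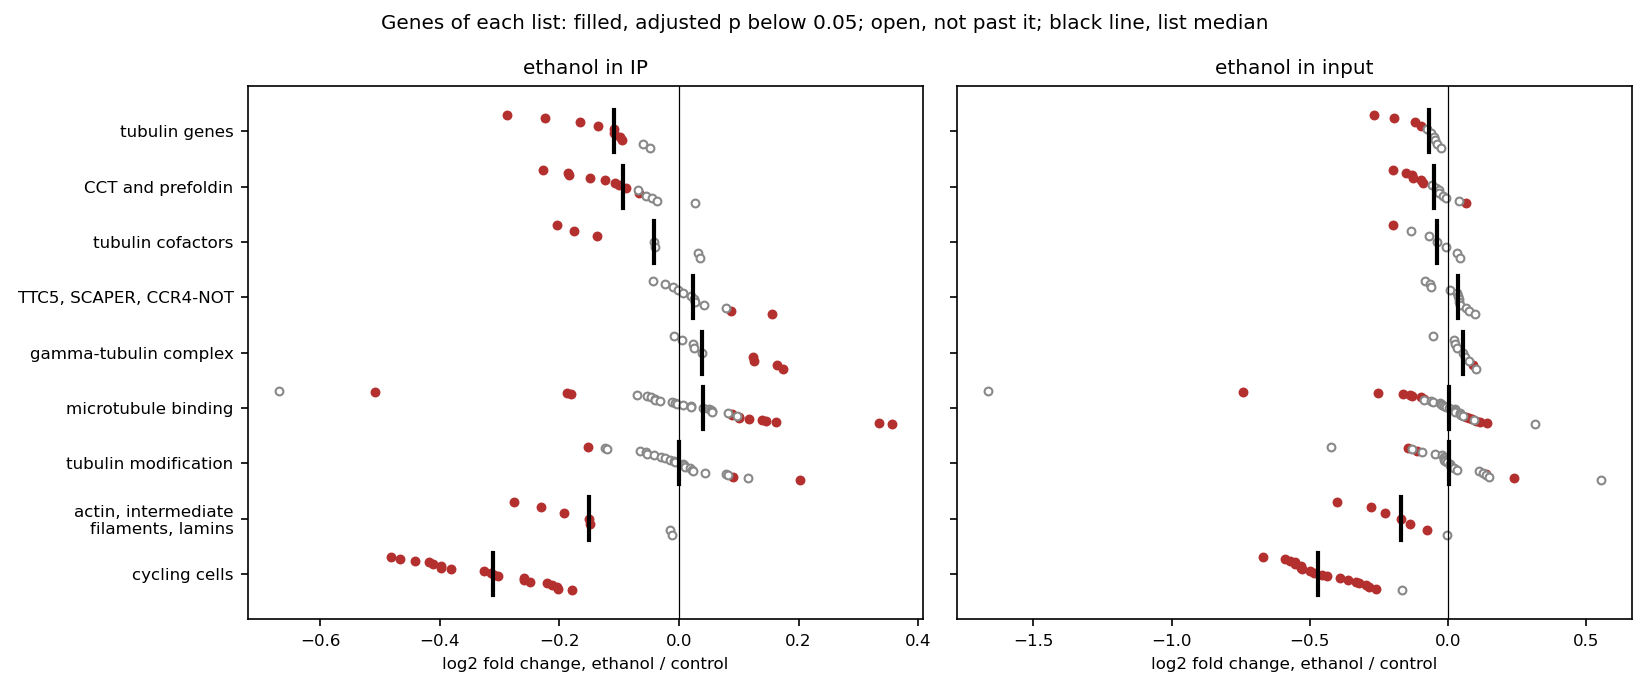
Log2 fold change of ethanol over control for the genes of each list (points, filled where the adjusted p was below 0.05) and the list's median (black line), in 12 IP libraries (left) and 6 input libraries (right), with x axes of different range. Medians of the tubulin genes lie at -0.11 and -0.07, those of the CCT and prefoldin genes at -0.09 and -0.05, and those of genes of cycling cells at -0.31 and -0.47.

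The counts of cell type markers called with ethanol stand beside 21.4% of all genes called in the IP and 15% in the input. Of 8 fibroblast and mural markers 2 fell in each fraction, *Acta2*, smooth muscle actin, by -0.56 ± 0.04 in the IP and -0.59 ± 0.02 in the input, and *Tagln*, an actin-binding protein, by -0.51 ± 0.06 in the IP, and 0 rose, or 1 in the input without input ethanol replicate 5. Their summed level ran from 1732 to 1867 CPM in IP control and from 1153 to 1356 CPM in IP ethanol. In input control the sum was 1503 to 1579 CPM, of which *Acta2* held a mean of 1186 CPM, while *Lum* was at or below 0.112 CPM in every group. Of 11 neuronal markers 2 fell in each fraction, *Gap43* and *Stmn2*, and 1 rose, with a sum of 125 to 135 CPM in IP control and 113 to 122 CPM in IP ethanol. Of 8 microglia markers 1 rose and 0 fell in each fraction, and 2 rose in the input without input control replicate 4 or input ethanol replicate 6. Of 10 astrocyte markers 4 rose and 0 fell in the IP, led by *Aqp4* (0.25 ± 0.02), and 4 rose and 3 fell in the input. The 3 were 1 without input control replicate 5 or 6 or input ethanol replicate 5 or 6, and the 0 that fell in the IP was 1 without IP control replicate 5 or IP ethanol replicate 2 or 3. Of 9 markers of the oligodendrocyte lineage 2 rose and 1 fell in the IP and 3 rose and 1 fell in the input, where 1 rose without input ethanol replicate 6. Of 8 genes of motile cilia, which hold tubulin in their axonemes, 1 rose and 2 fell in the IP and 0 rose and 2 fell in the input, with at least 1 of these counts lower by 1 without any of 10 of the 12 IP libraries and 3 of the 6 input libraries. Between fractions the fibroblast and mural markers were 4 higher and 4 lower in the IP, those of the oligodendrocyte lineage 4 higher and 4 lower, and the genes of motile cilia 5 higher and 1 lower. Over all genes these shares were 25.2% higher and 25.8% lower. The part of any of these in the tubulin values was not tested.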

How the data were processed

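The authors ran Trimmomatic on the paired reads, used STAR with the GRCm38 genome, and deposited raw counts of read pairs per gene for 18 libraries. The deposited counts were not normalized and were taken without regard to strand. They leave out pairs with several mapping places (3.60% of pairs on average) and pairs that fall on overlapping genes (5.50%). The first share was 4.56% to 4.77% in the input libraries and 2.95% to 3.19% in the IP libraries. Multimapped pairs of near-identical tubulins and pseudogenes are thus lost. Tool versions are not given in the sources used here.

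Genes with at least 10 read pairs over 18 libraries were tested with edgeR 4.0.16 (TMM, glmQLFit with robust estimation, glmQLFTest) in R 4.3.3, with Benjamini-Hochberg adjustment over 24495 genes and a threshold of 0.05. IP vs. input had a term for treatment and none for the dish. SE is the fold change divided by the square root of F, and 95% intervals are 1.96 SE. DESeq2 1.42.0 was an alternative. The steps were also run on simulated counts drawn as independent libraries from the fitted model. Such counts cannot test the effect of shared dishes or cultures, and no result here rests on them. Levels per length used the union of exons in GENCODE M21. Protein sequences were not used here, and coding sequences were compared instead.

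Input and IP libraries of one treatment and number come from the same dish by their labels and the authors' methods, so the dish is a true block there. The correlation of their deviations was 0.0292 to 0.164 and does not itself show this pairing. Input control replicate 5 and input ethanol replicate 6 correlated best with IP replicate 1 of their treatment. The 10 members and all gene lists were chosen with earlier results of these data known. All 10 members are named, and of each list up to 4 called genes of largest change with a mean of at least 5 CPM, besides *Ttc5*, *Scaper* and *Cnot11*. *Gm20388*, *Stk16*, *Fam166a*, *Snap25*, *Dcx*, *Rbfox3*, *Lum*, *Tubg1*, *Tuba8*, *Tubg2*, *Tuba3a*, *Tubal3* and *Tubb1* were named after their values were seen.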

Additional observations from a re-analysis of the deposited data

Results flagged for a closer look

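In 48 groups of 6 IP libraries (CPM, shares, ratio and sums of the tubulins), 5 values stood apart from the other 5 of their group. They come from 3 libraries, and the level and share of a gene in a library are not separate events, so the chance rate of about 1 in 20 groups is only a rough guide. The level of *Tubb6* in IP ethanol replicate 1 was 103.1 CPM, with the next library at 114.3 CPM, and its share of the β-tubulins per length there was 5.90%, with the next at 6.29%. Without this library *Tubb6* still fell with ethanol in the IP (log2 fold change -0.26 ± 0.02, adjusted p = 1.45e-12). The share of *Tubb6* in IP control replicate 3 was 6.907%, with the next at 7.14%. The level of *Tuba4a* in IP control replicate 5 was 19.1 CPM, with the next at 21.07 CPM, and its share of the α-tubulins there was 0.847%, with the next at 0.937%. Without this library *Tuba4a* differed by -0.09 ± 0.04 in the IP (adjusted p = 0.0898) and was still not called.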

How the results depend on the processing

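No direction of a called tubulin gene reversed under any alternative, and the number of tubulin genes called stayed within 1.5 times its value except against a fold change of 1.2. That test called 2 tubulins of 4936 genes in IP vs. input, 0 of 95 with ethanol in the IP, 0 of 55 in the input and 0 of 65 in limited IP. Leaving out each library in turn gave 10 to 10 tubulins in IP vs. input, 8 to 8 with ethanol in the IP, 4 to 5 in the input and 6 to 8 in limited IP. *Tubb2a* in the input was also called by DESeq2 (adjusted p = 0.0301), at 1 CPM or more in 3 libraries (0.0310) and with counts of the annotated strand (0.0467). Without a term for treatment, *Tuba1b* (adjusted p = 0.282) and *Tubb6* (0.231) were not called in IP vs. input. Directions of some values that were not called changed, with *Tubb3* in the input ranging from -0.11 to 0.02. The interaction of fraction and treatment called 0 tubulins under every alternative, and over all genes 4 by DESeq2, 13 in 12 libraries without a block, 102 with the dish as replicate block and 0 to 1 with a library left out.

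The only link between a control and an ethanol dish is its replicate number (correlations -0.112 to 0.266), which does not pair them. The replicate number as a block left 8 tubulins called with ethanol in the IP, 5 in the input, where *Tubb2a* was added (adjusted p = 0.0422), and 8 in limited IP, and the dish block left 10 in IP vs. input. Of the control libraries, 2 of 6 in the IP and 2 of 3 in the input correlated best with the ethanol library of their own number. The ratio of α to β levels, 0.801 in input control and 0.764 in IP control, was 0.702 and 0.675 with the longest transcript, 1.27 and 1.19 with unique windows, and 0.790 in input control with counts of the annotated strand. The cause of these changes was not tested, other than that each length scale weights the genes differently. Each pair of replicates differed beyond counting error, with a chi-square divided by its degrees of freedom of at least 4.06.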
